A study of Homo sapiens with 8 samples.

Results

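The autophagy and lysosome genes described here are 47 genes chosen by their known function in autophagy and the lysosome, of which 46 could be matched by symbol to 1 of the 60291 gene identifiers in the count tables. NCOA4, the receptor for ferritin, was not matched and was not analysed here. All 46 matched genes had enough reads to be tested, among 17811 genes in all. They comprised 24 genes of the autophagy core, 4 receptors, 3 transcription factors and 15 genes of the lysosome (4 membrane proteins, 3 V-ATPase subunits and 8 proteins of the lumen).

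The genes were measured by strand-specific total RNA sequencing in A549, an established human lung adenocarcinoma line. A549 cells carry an inactivating KEAP1 mutation, which removes the main brake on NRF2, so that the control and mock libraries too came from cells with high NRF2 activity. Of 8 transfections of 250000 cells, 3 used NFE2L2 siRNA (5 nmol; duplexes 1, 2 and 3, each transfected once), 4 used control siRNA (5 nmol; libraries 1 and 2 from control duplex 1, libraries 3 and 4 from control duplex 2) and 1 was a mock transfection with the lipid reagent only. RNA was taken after 48 h. An siRNA duplex directs the degradation of matching mRNAs, and NFE2L2 encodes NRF2, the main activator of antioxidant genes. The comparison asked how the members stood after loss of NFE2L2, and no source used here says that the transfections came from separate cultures, so that p-values measure the spread between these libraries.

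In autophagy, a double membrane grows around cytoplasmic cargo, closes to form an autophagosome and fuses with a lysosome, whose acid hydrolases break the cargo down. The ULK kinase complex starts the process, ATG9A and the ATG2 proteins supply lipid, the class III PI3-kinase complex marks the membrane, and a pair of ubiquitin-like conjugation systems attach proteins of the ATG8 family to it. Receptors then tie cargo to the ATG8 proteins. TFEB, TFE3 and MITF are related transcription factors that drive many lysosome and autophagy genes through an E-box motif, and NRF2 binds the antioxidant response element.

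Between 35525141 and 41645410 reads were counted on genes in each library, and 39498992 in the mock library. The normalized level used throughout is CPM, reads per 1000000 gene reads scaled by TMM factors between 0.958 and 1.02. NFE2L2 itself fell with its siRNA, by 1.55 on the log2 scale (edgeR quasi-likelihood test, adjusted p = 0.000995), and the NRF2 targets NQO1, GCLM, GCLC, TXNRD1 and HMOX1 all fell as well. The 5 epithelial markers summed to between 7322 and 11671 CPM with NFE2L2 siRNA and between 7619 and 8366 CPM with control siRNA, mostly from KRT8 and KRT18, while EPCAM stayed below 11 CPM. The 4 matched markers of other cell types (PTPRC, CDH5, COL1A1 and PDGFRB) summed to 9.94 to 14.6 CPM with NFE2L2 siRNA and to 4.42 to 4.83 CPM with control siRNA, nearly all of it COL1A1, and PTPRC was at or near 0. Of these markers, COL1A1 rose, at 9.24 to 13.7 CPM against 3.95 to 4.53 CPM in the controls (edgeR adjusted p = 0.000493). CDH5 had 18 to 39 reads a library with NFE2L2 siRNA and fewer than 10 in every control library. It was tested only because of its reads with NFE2L2 siRNA, so that its edgeR adjusted p of 0.00820 is not separate support for a rise. PDGFRB did not pass and PTPRC was too low to test. Of the epithelial markers 0 passed and 3 were higher at an unadjusted p below 0.05. The part of these markers in the results was not tested.

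Of the 46 members, 3 fell with NFE2L2 siRNA and 0 rose at an adjusted p below 0.01, and 43 did not pass the test (edgeR quasi-likelihood test, two-sided, Benjamini-Hochberg adjustment over all tested genes). At an unadjusted p below 0.05, 8 members were higher and 8 lower (34.8%), against 25.0% of all tested genes, 13.3% higher and 11.7% lower. Over all 17811 tested genes, 2.76% passed, 1.36% lower and 1.39% higher. The members that fell were the lysosomal enzymes GLA and CTSL and the transcription factor TFE3. Of the 24 genes of the autophagy core, 0 passed in edgeR, with 1 higher and 4 lower at an unadjusted p below 0.05 (20.8%, below the 25.0% of all genes), and of the 4 receptors 0 passed, with 0 at an unadjusted p below 0.05. The median log2 fold change was 0.06 over the members and 0.01 over all genes, and 42 of the 46 members (91.3%) lay within 0.5 of 0, against 80.6% of all genes. In bulk RNA, fewer cells with a transcript and less transcript in each cell cannot be told apart.

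A second description is whether all 3 NFE2L2 siRNA libraries lay on 1 side of all 4 control libraries. This was so for 11 members that were higher (23.9%) and 9 that were lower (19.6%), while among all tested genes 11.9% were higher and 11.4% were lower in this sense. An exact two-sided permutation test over the 35 divisions of the 7 libraries gives such a gene p = 0.0571, the smallest it allows, so that this test cannot reach 0.05 here. DESeq2 called 3 members higher (ATG2B, LAMP1 and NPC2, against 4.05% of all genes) and added ATG16L1 to the members that were lower (against 3.32%). The limma-voom fit called the same 3 members as edgeR, and over all 17811 tested genes it called 245 lower and 220 higher.

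**Figure D1:**
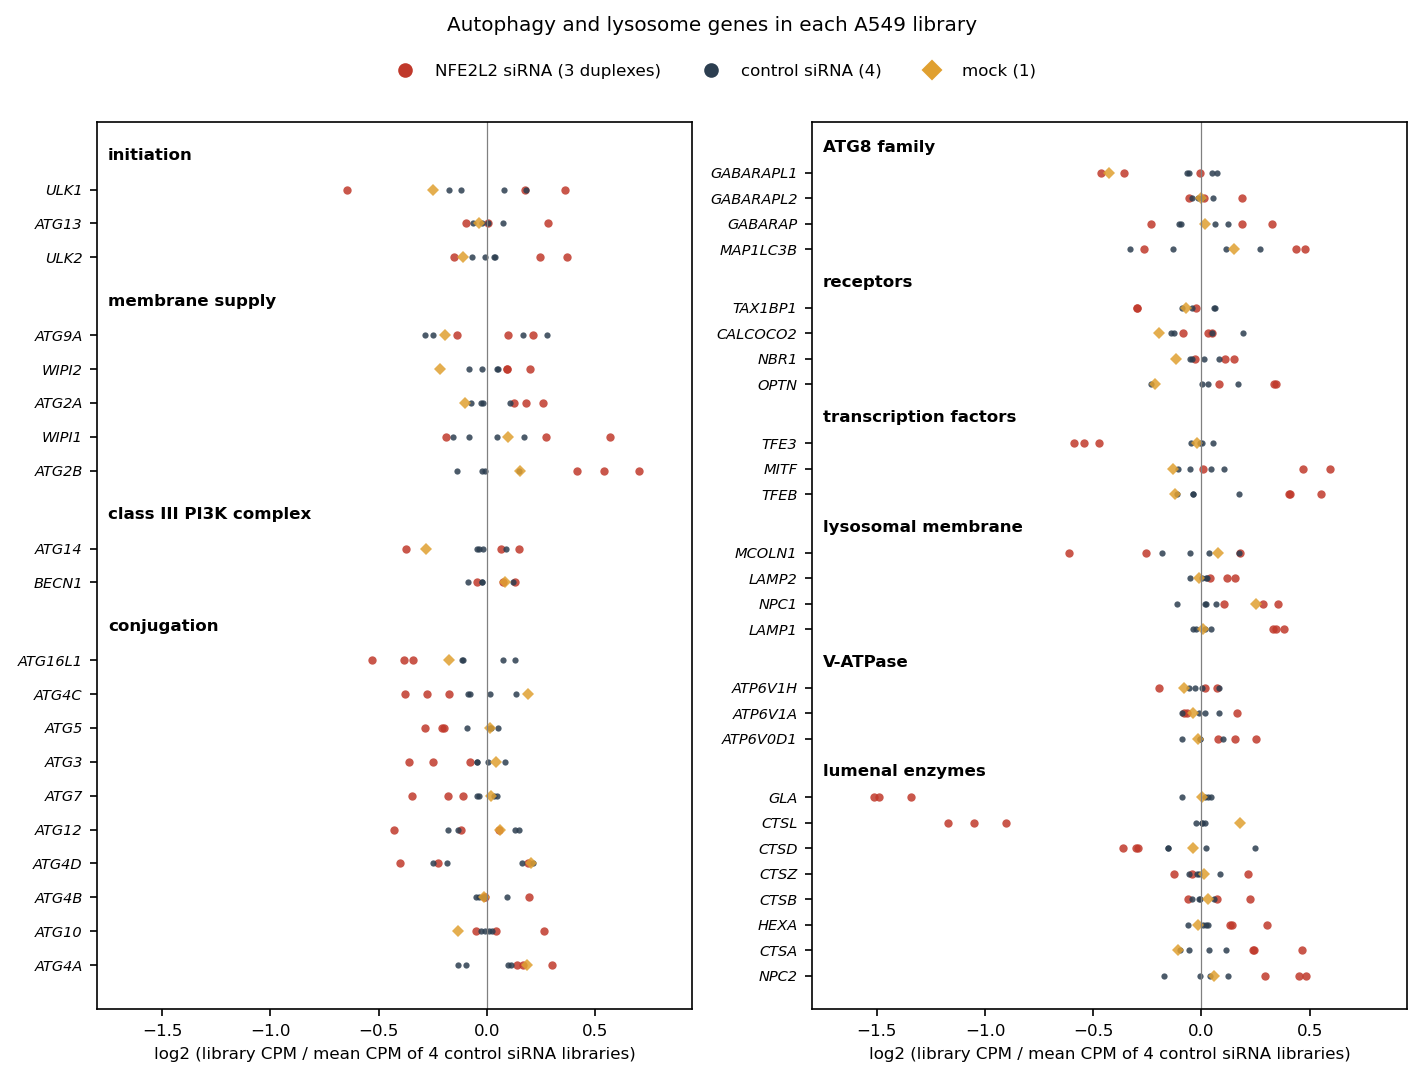
Each row is a member, grouped by role, and each point is a library on the log2 scale, as its CPM over the mean CPM of the 4 control siRNA libraries: NFE2L2 siRNA in red (3), control siRNA in dark blue (4) and mock as an orange diamond (1). GLA and CTSL stand near −1.45 and −1.04 while most members lie within 0.5 of 0, and TFE3 is the remaining member past the threshold.

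Among the proteins of the lysosomal lumen, GLA fell most. It encodes alpha-galactosidase A, which removes terminal galactose from glycolipids and is deficient in Fabry disease. Its level was 44.7, 49.6 and 44.1 CPM with NFE2L2 duplexes 1, 2 and 3, and 118, 127, 128 and 129 CPM in control libraries 1 to 4, with 126 CPM in the mock library. The mock library thus lay within the control range and the highest NFE2L2 siRNA library lay far below the lowest control. The mean was 46.1 ± 3.02 CPM (SD, n = 3) against 126 ± 5.22 CPM (SD, n = 4), a log2 fold change of −1.45 (standard error 0.0894, edgeR adjusted p = 2.11e-05). GLA passed the threshold under each of the 19 alternative settings, between −1.51 and −1.41.

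CTSL encodes cathepsin L, a cysteine protease of the lumen, and had the highest level per kilobase of all members. It stood at 325, 299.2 and 359.7 CPM with the NFE2L2 duplexes and at 661, 682, 675 and 675 CPM in the controls. The controls lay close together and well above the NFE2L2 siRNA libraries, and the mock library, at 761 CPM, lay above the controls. The log2 fold change was −1.04 (standard error 0.0909, edgeR adjusted p = 0.000201). CTSL stayed past the threshold with each library left out in turn, and missed it with control duplex 2 alone (−1.04, edgeR adjusted p = 0.0111) and when both repeats of a control duplex were added together (−1.03, edgeR adjusted p = 0.0115), a setting in which 0.403% of all tested genes were called lower. The annotation holds several pseudogenes named for CTSL, whose reads could be shared with it.

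GLA lies at chrX:100648261-100663000 on the minus strand and CTSL at chr9:90338966-90346384 on the plus strand in GRCh37, the build of the counts. GLA overlaps RPL36A on the opposite strand, and reads were counted by strand. RefSeq start sites in GRCh38.p14, with 250 bases before and 50 after each start, were searched on both strands for TGACNNNGC, the core of the antioxidant response element. The match in each gene is printed below with 10 flanking bases, on the strand that reads TGAC and with the match in capitals, beside that of GCLM, a known NRF2 target that fell by 2.52 on the log2 scale.
GLA, chrX:101407890-101407918: ccggtcaccgTGACAATGCagctgaggaa
CTSL, chr9:87726086-87726114: cagcttcgccTGACTCTGCttctaaaacc
GCLM, chr1:93909446-93909474: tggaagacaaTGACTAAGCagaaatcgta
Read along the gene's own strand, the match begins 17 bases after the start in GLA, 23 before it in CTSL and 34 before it in GCLM. TGAC is read on the gene's own strand in GLA and on the opposite strand in CTSL and GCLM. A match in letters is a description and not a binding site. TFE3 had no match in its window.

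The other 6 proteins of the lumen did not pass the test. CTSB (cathepsin B) was the most abundant of them at 874 to 1066 CPM with NFE2L2 siRNA and 886 to 949 CPM with control siRNA, which overlap, a log2 fold change of 0.08 (standard error 0.0922). CTSZ, another cysteine cathepsin, also overlapped between groups (0.02). CTSD, the aspartic protease cathepsin D, was below all controls at 310.2, 298 and 312 CPM against 453, 388, 344 and 344 CPM. Its log2 fold change of −0.32 missed the threshold (edgeR adjusted p = 0.112), and its controls of duplex 1 lay above those of duplex 2.

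Of the 8 proteins of the lumen, 3 were higher with NFE2L2 siRNA without overlap (37.5%), against 11.9% of all tested genes. Another 3, GLA, CTSL and CTSD, were lower without overlap (37.5%, against 11.4%). NPC2, which carries cholesterol out of the lumen, was at 78.5, 89.6 and 87.6 CPM against 56.8, 65.9, 63.8 and 69.6 CPM, a log2 fold change of 0.41 (edgeR adjusted p = 0.0323). CTSA, a carboxypeptidase that also protects other hydrolases, stood 0.32 higher on the log2 scale (edgeR adjusted p = 0.0724). HEXA, the alpha subunit of beta-hexosaminidase A, stood 0.19 higher (edgeR adjusted p = 0.182). Over the 8 proteins of the lumen the median log2 fold change was 0.05, and GLA and CTSL had the lowest values.

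**Figure D2:**
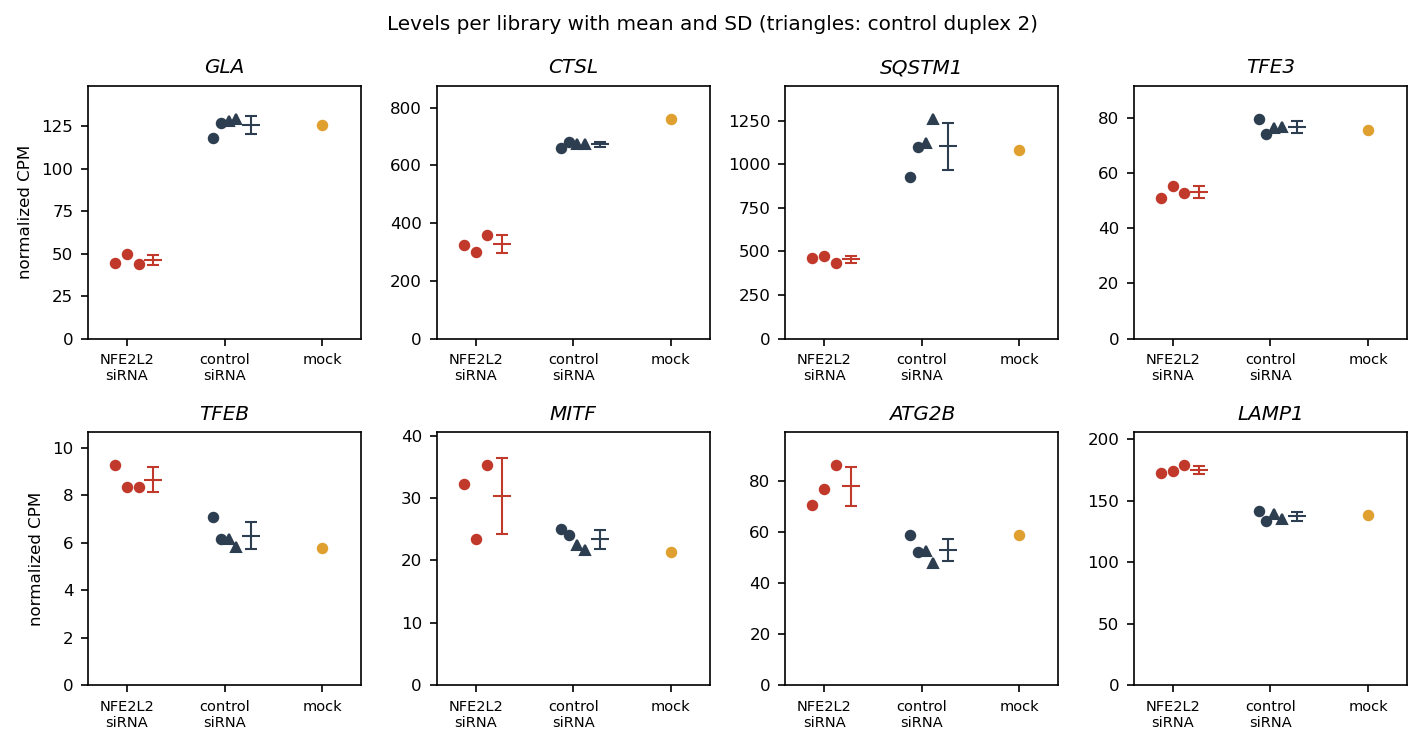
Normalized CPM on linear axes from 0 for 7 members and SQSTM1, with each library as a point, control duplex 2 as triangles, and the mean and SD beside the points of the 3 NFE2L2 siRNA and 4 control siRNA libraries. GLA, CTSL, SQSTM1 and TFE3 are lower in all NFE2L2 siRNA libraries, TFEB, ATG2B and LAMP1 are higher in all, and MITF overlaps.

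The 3 related transcription factors did not share a direction. TFE3, the most abundant of them per kilobase, stood at 51.1, 55.4 and 52.7 CPM with NFE2L2 siRNA and at 79.8, 74.3, 76.6 and 77.0 CPM in the controls, with 75.9 CPM in the mock library. The groups did not overlap and the spread within each was narrow. TFE3 fell by 0.53 on the log2 scale (standard error 0.0820, edgeR adjusted p = 0.00464), to 0.69 of the control level. Its size hardly moved under the alternatives (−0.58 to −0.50), but 8 of 19 lost the call. These were the omission of NFE2L2 siRNA duplex 3 (adjusted p = 0.0159) or of control library 1, 2, 3 or 4 (0.0179, 0.0203, 0.0174 and 0.0226), each control duplex alone (0.0598 and 0.0688) and the summed control duplexes (0.104).

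TFEB had the opposite sign at a low level. It stood at 9.27, 8.35 and 8.38 CPM against 7.10, 6.15, 6.15 and 5.83 CPM in the controls, and the groups did not overlap. Its log2 fold change was 0.46 (standard error 0.120), with an edgeR adjusted p of 0.0457, and the mock library was at 5.80 CPM, below all controls. MITF was at 32.3, 23.4 and 35.2 CPM against 25.1, 24.1, 22.5 and 21.7 CPM. Duplex 2 lay among the controls and duplexes 1 and 3 stood above them, so that the log2 fold change of 0.38 had an edgeR adjusted p of 0.132. At the wider threshold of 0.05, ATG2B, LAMP1, NPC2 and TFEB were higher, against 4.63% of all genes.

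Of the 4 lysosomal membrane proteins, 0 passed the test in edgeR, 3 had positive log2 fold changes, and 2 were higher at an unadjusted p below 0.05, which 13.3% of all genes reached in that direction. LAMP1, a main glycoprotein of that membrane, was at 172, 174 and 179 CPM with NFE2L2 siRNA and at 141, 134, 139 and 135 CPM in the controls. No library of either group came near the other, and the mock library, at 138 CPM, was within the controls. The log2 fold change was 0.35 (standard error 0.0765, edgeR adjusted p = 0.0223). LAMP2, its relative, and NPC1, the membrane transporter that takes cholesterol from NPC2, also had groups that did not overlap. Their log2 fold changes were 0.11 and 0.25, although the mock library exceeded all controls for NPC1. Over all tested genes 11.9% had such groups in the higher direction. MCOLN1, a cation channel of the lysosome, overlapped (−0.19) at 5.11 to 8.84 CPM with NFE2L2 siRNA, and it shares its locus and strand with PNPLA6, so that reads in the overlap could be left uncounted.

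The V-ATPase pumps protons into the lysosome. None of its 3 member subunits passed the test in edgeR, at an unadjusted p below 0.05 or in DESeq2. ATP6V0D1, of the membrane sector, had a log2 fold change of 0.16, and ATP6V1A and ATP6V1H, of the cytosolic sector, had 0.01 and −0.03. All 3 overlapped between groups, and their standard errors were between 0.0877 and 0.0952.

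In the autophagy core, the initiation genes ULK1, ULK2 (the kinases) and ATG13 (their partner) had log2 fold changes of 0.03, 0.17 and 0.07, and all overlapped. ULK1 was the member that varied most among the NFE2L2 duplexes, at 35.4, 62.5 and 71.1 CPM against 49.0 to 62.7 CPM in the controls. Duplex 1 was thus below and duplex 3 above every control, and ULK1 was the only member with more than 1 log2 unit between NFE2L2 duplexes.

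All 5 genes of membrane supply had positive log2 fold changes, with a median of 0.19, and 3 of them had groups that did not overlap. Over all tested genes 51.3% had positive log2 fold changes, and 11.9% had groups that did not overlap and were higher. ATG2B, a lipid transfer protein, was nearest to the threshold of all members that were higher. It stood at 70.6, 77.0 and 86.1 CPM with NFE2L2 siRNA and at 58.7, 52.1, 52.6 and 48.05 CPM in the controls, with 58.9 CPM in the mock library. Every NFE2L2 siRNA library exceeded the controls and the mock. The log2 fold change was 0.56 (standard error 0.104, edgeR adjusted p = 0.0108), and it passed in 6 of the alternatives, DESeq2 and the omission of NFE2L2 siRNA duplex 1 (edgeR adjusted p = 0.00815) among them. Its relative ATG2A had 0.19 (adjusted p = 0.214), and WIPI2, which reads the lipid mark and recruits ATG16L1, had 0.13 (adjusted p = 0.375). WIPI1 (0.25) and the lipid scramblase ATG9A (0.07) overlapped.

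The class III PI3-kinase subunits BECN1 and ATG14 overlapped between groups, at 0.06 and −0.03. In conjugation 7 of 10 genes had negative log2 fold changes, the median was −0.18, and 5 had groups that did not overlap and were lower. Over all tested genes 51.3% had positive log2 fold changes, and 11.4% had groups that did not overlap and were lower. Of the 10 conjugation genes 0 passed in edgeR. ATG16L1, which places the conjugation machinery on the membrane, was at 110.1, 107 and 96.5 CPM with NFE2L2 siRNA and 153, 147, 129 and 129 CPM in the controls. The groups did not overlap, but the mock library, at 123 CPM, was below all controls as well. The log2 fold change was −0.42 (standard error 0.0992, edgeR adjusted p = 0.0329).

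The other 4 conjugation genes of this kind were the E1-like enzyme ATG7 (−0.21), the E2-like enzyme ATG3 (−0.22), ATG5 (−0.23) and the protease ATG4C (−0.27), with edgeR adjusted p-values between 0.130 and 0.219. ATG12, the modifier joined to ATG5, and ATG10, the enzyme that joins them, overlapped at −0.15 and 0.09. The 4 ATG4 proteases, which process and recycle ATG8 proteins, did not share a direction. ATG4C was at 12.6 to 14.5 CPM against 15.4 to 18.0 CPM, and ATG4A was at 15.7 to 17.6 CPM against 13.0 to 15.4 CPM, so that ATG4C was lower and ATG4A higher with no overlap. Their mock values, 18.7 and 16.2 CPM, exceeded all controls. ATG4B (0.06) and ATG4D (−0.12) overlapped.

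The ATG8 proteins are lipidated onto the membrane and bind receptors. MAP1LC3B, the gene of LC3B, was at 27.2, 44.2 and 45.4 CPM with NFE2L2 siRNA and at 26.0, 29.8, 35.3 and 39.4 CPM in the controls. Duplexes 2 and 3 exceeded all controls and duplex 1 lay among the lower ones, for a log2 fold change of 0.26 with a standard error of 0.196. GABARAPL1 had −0.26, with duplex 3 among the controls and duplexes 1 and 2 below them, and its mock level of 39.8 CPM was below all controls, which were at 51.1 to 56.3 CPM. GABARAP (0.11) and GABARAPL2 (0.05) overlapped. MAP1LC3B and GABARAPL1 have near-identical copies in the genome, MAP1LC3B2 and GABARAPL3, so that their levels are uncertain where reads were shared.

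No receptor passed the test. NBR1, OPTN, CALCOCO2 and TAX1BP1, which carry ubiquitinated cargo, had log2 fold changes of 0.08, 0.26, −0.0018 and −0.20, with edgeR adjusted p-values from 0.2005 upwards. OPTN was at 65.8, 78.7 and 79.0 CPM against 53.0, 62.5, 63.7 and 70.1 CPM. Duplexes 2 and 3 exceeded all controls and duplex 1 lay among them.

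The receptor SQSTM1 is not among the 47 members and was in a list of other autophagy genes. It encodes p62, which binds ubiquitinated cargo and KEAP1 and is a known NRF2 target. Its level was 462, 471 and 432 CPM with NFE2L2 siRNA and 929, 1099, 1120.0 and 1260.1 CPM in the controls. All NFE2L2 siRNA libraries were below all controls and the mock library (1084 CPM), and SQSTM1 fell by 1.28 on the log2 scale (standard error 0.114, edgeR adjusted p = 0.000227), under all 19 alternatives. It was the only gene edgeR called among 23 other autophagy genes tested, where DESeq2 also called MAP1LC3A and VAMP8 higher (edgeR log2 fold changes of 0.65 and 0.59, edgeR adjusted p = 0.0178 and 0.0200), and of 11 other selective receptors 0 were called, with 1 higher and 2 lower at an unadjusted p below 0.05 (25.0% of all genes in either direction) and 0 by DESeq2.

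The 6 other lists held 123 tested genes of the same pathways, of which 2 rose and 2 fell. Over all tested genes 1.39% rose and 1.36% fell. FUCA1, lysosomal alpha-L-fucosidase, rose from 19.8 ± 1.08 CPM (SD, n = 4) to 31.7 ± 2.66 CPM (SD, n = 3), and CTSH, cathepsin H, rose with a log2 fold change of 0.68, as FUCA1 did. Their edgeR adjusted p-values were 0.00388 and 0.00395, and each lost the call in 7 or 8 of the 19 alternatives. ATP6V1E2, a V-ATPase subunit, fell by 0.61 on the log2 scale (edgeR adjusted p = 0.00976) and lost the call in 10. FUCA1 lost it without NFE2L2 siRNA duplex 3 or control library 2, 3 or 4, CTSH without duplex 3 or any 1 control library, and ATP6V1E2 without duplex 1 or 3 or any 1 control library. Among the 36 other lysosomal enzymes, 2 rose and 0 fell, 32 had positive log2 fold changes and the median was 0.22, against 0.01 over all genes, of which 51.3% were positive. In this list 12 genes were higher and 0 lower at an unadjusted p below 0.05, against 13.3% and 11.7% of all genes. DESeq2 called SMPD1 higher besides FUCA1 and CTSH, and called 4.05% of all genes higher. Of 11 other lysosomal membrane proteins 0 passed in edgeR, with 2 higher at an unadjusted p below 0.05, and of 24 genes of mTORC1 signalling at the lysosome 0 passed, with 4 higher and 1 lower at that p, which 13.3% of all genes reached higher and 11.7% lower. DESeq2 called 0 genes in either list.

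**Figure D3:**
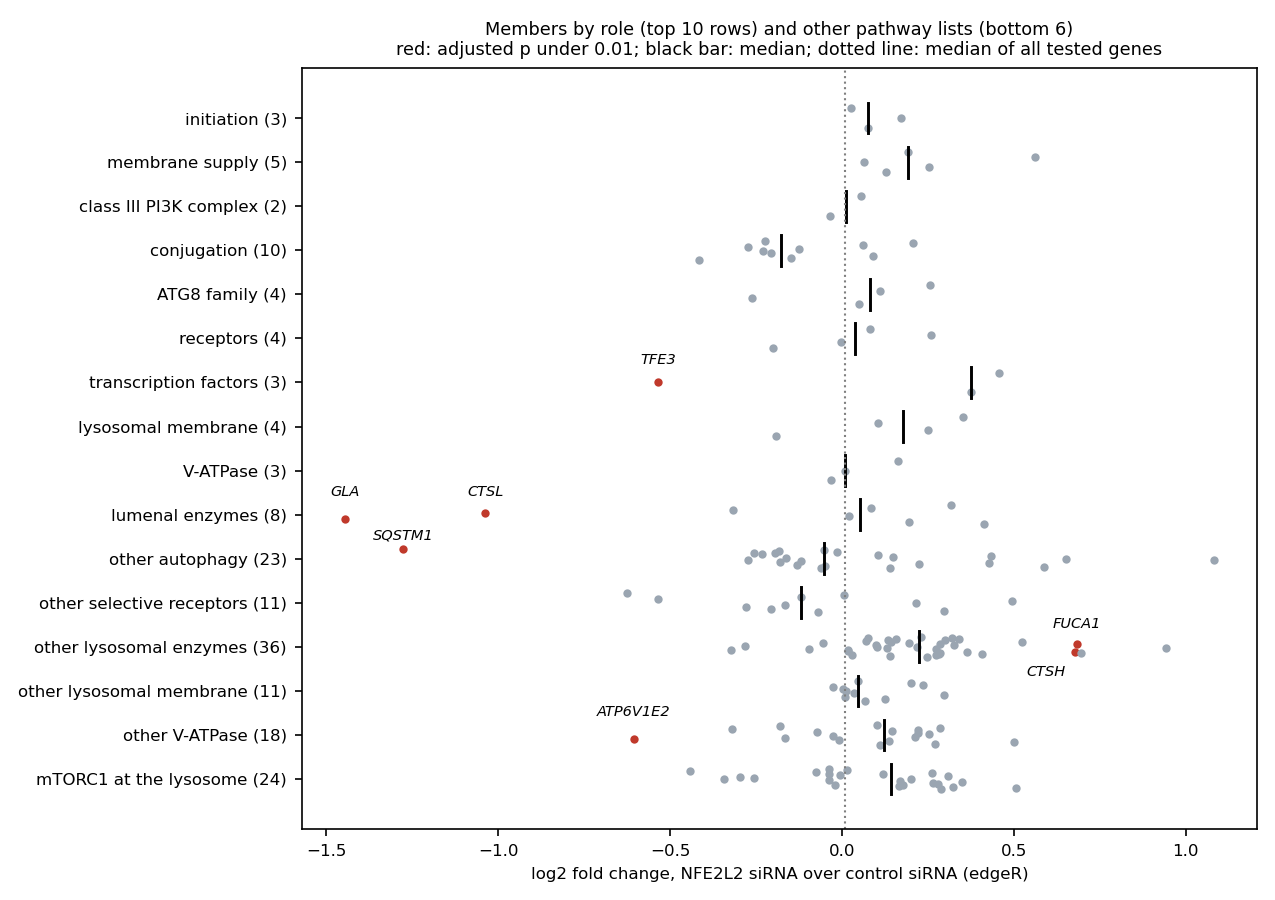
Log2 fold change of NFE2L2 siRNA over control siRNA from edgeR, 1 point per gene, in the 10 roles of the members (top rows) and the 6 other pathway lists (bottom rows), with the number tested in brackets, the median as a black bar and the median of all tested genes as a dotted line. The 7 red points are genes with an adjusted p below 0.01, GLA, CTSL and TFE3 among the members, and the other lysosomal enzymes lie mostly right of the dotted line, with a median of 0.22.

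The 4 control libraries came from 2 duplexes, and the difference between these duplexes shows how far members moved without NFE2L2 siRNA. In edgeR only ATG9A passed the threshold between them, being lower with control duplex 2, where 3.29% of 17261 genes passed (1.51% lower). It was at 117 and 108 CPM with control duplex 1 and at 79.2 and 81.2 CPM with duplex 2, against 87.9, 112 and 103 CPM with NFE2L2 siRNA. The NFE2L2 siRNA libraries thus lay between or within the control duplexes. The log2 difference was −0.49 (standard error 0.0632, edgeR adjusted p = 0.00143), and DESeq2 called it too. With 1 control library left out, a duplex has a single library and the spread comes from the other duplex alone. ATG9A then had −0.43 and −0.55 without control library 1 or 2 (edgeR adjusted p = 3.97e-07 and 1.48e-11), and −0.47 and −0.51 without library 3 or 4 (edgeR adjusted p = 0.322 and 0.218), when edgeR called 0 genes of any kind, with 2103 and 2729 at an unadjusted p below 0.05.

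MAP1LC3B showed the largest difference in the other direction, 0.43 (edgeR adjusted p = 0.0135), and DESeq2 called it higher with control duplex 2 (adjusted p = 0.00387), as it did 2.18% of all genes. GLA, CTSL and TFE3 differed by 0.08, 0.01 and 0.00 between control duplexes, with standard errors of 0.0619 to 0.0657. These differences were small beside those with NFE2L2 siRNA. The mock library lay outside the range of the 4 controls for 19 of 46 members (41.3%), against 45.0% of all genes.

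**Figure D4:**
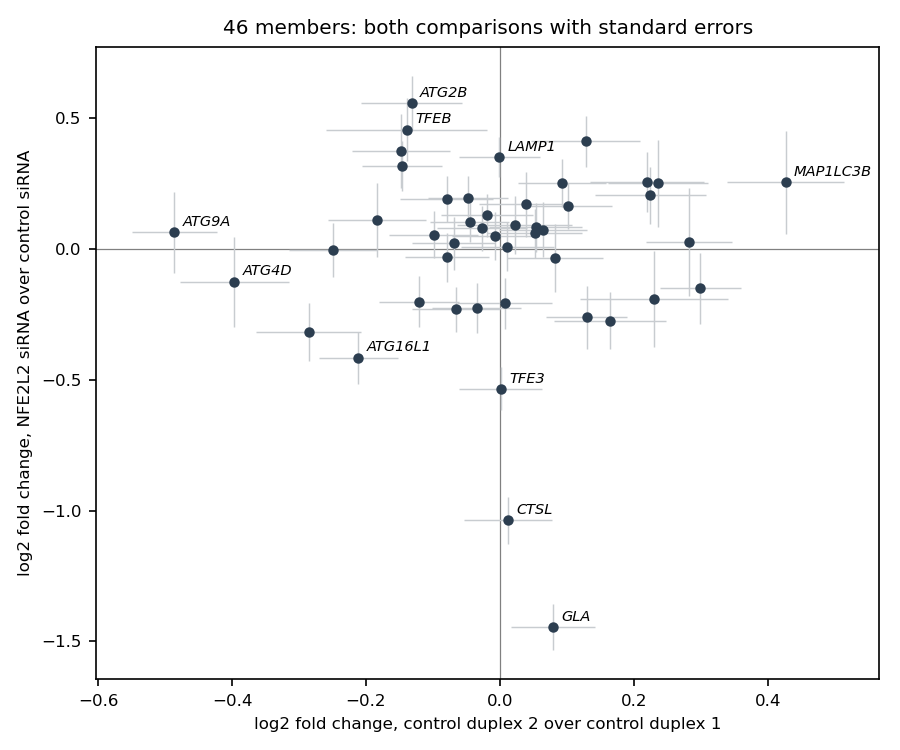
For each of the 46 members, the log2 fold change of NFE2L2 siRNA over control siRNA (vertical axis) against that of control duplex 2 over control duplex 1 (horizontal axis), with standard errors as bars. GLA, CTSL and TFE3 lie low on the vertical axis and near 0 on the horizontal axis, and ATG9A and MAP1LC3B lie at the ends of the horizontal axis, at −0.49 and 0.43; the comparisons share the control libraries.

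The coefficient of variation was larger with NFE2L2 siRNA for 32 of 46 members, with medians of 9.22% and 5.23%. Over all tested genes the medians were 16.9% and 9.93%, and 12409 of 17811 genes were more variable with NFE2L2 siRNA. The NFE2L2 siRNA libraries came from 3 duplexes and the controls from 2.

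Levels per length, as CPM per kilobase of the canonical transcript in the controls, placed proteins of the lumen highest. CTSL was at 407 ± 5.21 (SD, n = 4), CTSB at 244 ± 7.16 and CTSD at 186 ± 25.2, while HEXA was the lowest of the role at 26.1 ± 0.770. The autophagy core spanned from 52.9 ± 1.55 for GABARAPL2 and 46.9 ± 2.90 for BECN1 down to 4.02 ± 0.332 for ATG2B and 3.87 ± 0.134 for ULK2. Among the transcription factors TFE3 was at 23.4 ± 0.685, MITF at 4.87 ± 0.320 and TFEB at 2.70 ± 0.236. The factor that fell was thus also the most abundant of those listed here. The receptors ran from TAX1BP1 at 57.4 ± 3.01 to OPTN at 17.9 ± 2.04, and the lysosomal membrane proteins from LAMP1 at 50.8 ± 1.34 to MCOLN1 at 3.75 ± 0.393.

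**Figure D5:**
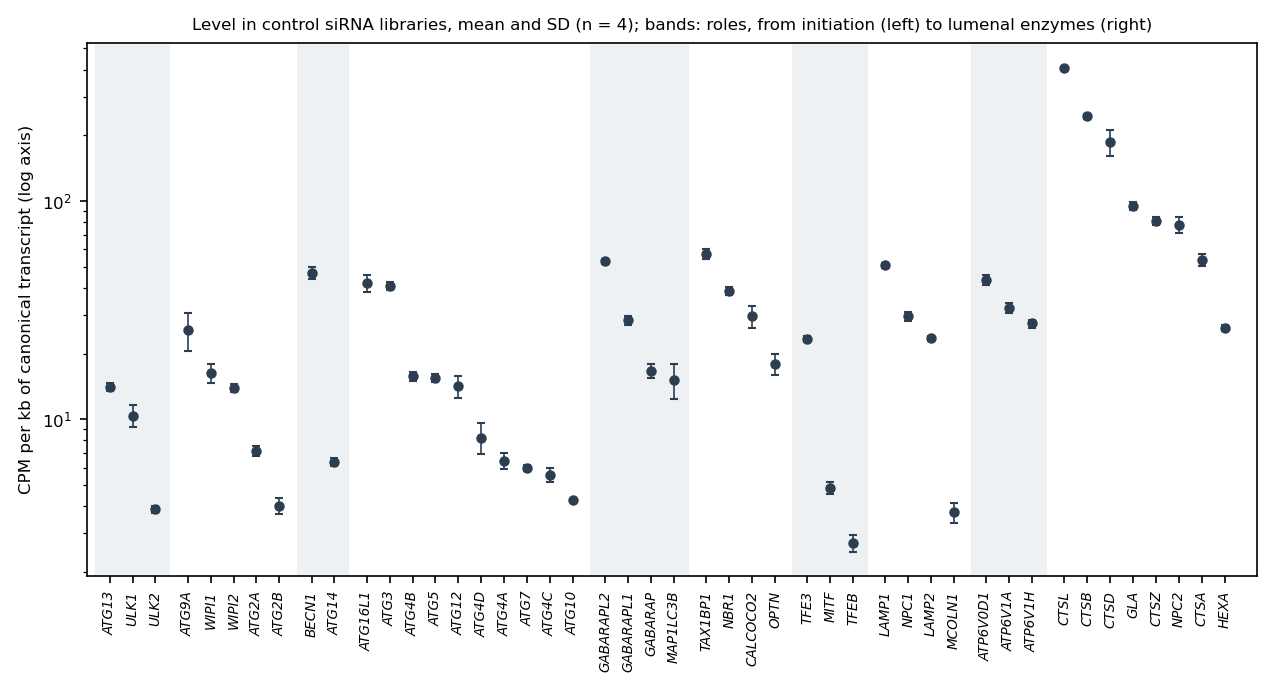
Mean and SD (n = 4) of the level per length in the control siRNA libraries, as CPM per kilobase of canonical transcript on a log axis, with members grouped by role in shaded and plain bands from initiation at the left to proteins of the lumen at the right. CTSL is highest at 407 and TFEB lowest at 2.70.

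Start-site windows were found for 41 of the 47 members, 52 windows in all. TGACNNNGC stood in 21.2% of these windows, in 18.2% of those of the other pathway lists and in 13.3% of all 35116 windows. Among the members 11 held it, 10 of which were tested. Of these 10, GLA and CTSL fell and 8 did not pass in edgeR, and the median log2 fold change of the 10 was 0.09. LAMP1, NPC2 and CTSA held a match too, with positive log2 fold changes that did not pass in edgeR and that DESeq2 called for LAMP1 and NPC2, and so did MAP1LC3B. The motif therefore occurred in members of either sign.

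The E-box TCACGTG is the core of the sequence bound by TFEB, TFE3 and MITF. It stood in 13.5% of the members' windows, in 13.9% of those of the other pathway lists and in 3.71% of all windows. Its 7 members were LAMP1, MCOLN1, CTSA, CTSD, ATG3, ATG14 and ATP6V0D1. None of them passed the test in edgeR, DESeq2 called LAMP1 alone, and their median log2 fold change was −0.03. Examples with their flanks are printed below, E-box in capitals. Whether the fall of TFE3 bears on these genes was not tested.
LAMP1, chr13:113297200-113297226: acccgcgggaTCACGTGacgcccgggc
MCOLN1, chr19:7522599-7522625: ggctaccgggTCACGTGaccgaggcac
CTSA, chr20:45891299-45891325: gcgccggagtTCACGTGactcgtacac
ATP6V0D1, chr16:67481201-67481227: ccccttatggTCACGTGaggcgcttgc
In LAMP1, 1 of its E-boxes overlapped the match to TGACNNNGC. Coordinates of both motifs are in GRCh38.p14.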

How the data were processed

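A549 cells were sampled as 3 NFE2L2 siRNA, 4 control siRNA and 1 mock library, grouped by their titles. The authors aligned reads with HISAT 0.1.6 to hg19 and deposited counts, the number of reads that HTSeq-count 0.6.0 assigned to each gene of GENCODE v19 by strand, without normalization. Entries for unassigned reads were left out, leaving 60.3% to 65.6% of all entries on genes. Depth was 35525141 to 41645410 reads per library, and a library's floor of 3 counts was at most 0.0844 CPM; this covers counting error only.

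Symbols were matched through GENCODE v44 mapped to GRCh37 and the reference name tables. A gene was tested if any of the 7 compared libraries held 10 or more of its reads, in edgeR 4.0.16 (R 4.3.3; TMM, glmQLFit, glmQLFTest, two-sided, Benjamini-Hochberg adjustment, threshold 0.01) without the mock library, and again between control duplexes. The standard error was taken as |log2 fold change| divided by √F. Alternatives were DESeq2 1.42.0, limma 3.58.1 with voom weights, other scalings and filters, robust fitting, an adjusted p limit of 0.05, each control duplex alone, summed control repeats, the mock library as a control, and the omission of each library. Exact permutation tests used Python 3.11.15 and scipy 1.17.1. The tests were checked on simulated data. In a chi-square test of counts over genes, each of the 28 pairs of the 8 libraries differed by more than sampling noise.

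The members and lists were chosen with earlier results of these data known, and so get no test as a list. Genes were named by rule: members past the threshold in either comparison, the largest change and the highest and lowest level per length in each role, the ATG8, ATG4 and TFEB families, members without overlap over 0.5 in size, and up to 3 genes per direction of each other list. CTSB, CTSZ, CTSD, CTSA, NPC1, NPC2, LAMP2, ULK1, WIPI1, WIPI2, ATG2A, ATG3, ATG5, ATG7, ATG12, NBR1, CALCOCO2 and ATP6V1A were added after their values were seen. Sequences are RefSeq start-site windows in GRCh38.p14.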

Additional observations from a re-analysis of the deposited data

How the results depend on the processing

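GLA and SQSTM1 kept their call under all 19 alternatives. Over the members and the named pathway genes, 864 of the recomputed log2 fold changes kept their direction and side of the threshold, 14 newly passed, 35 no longer passed and 37 changed sign. The number of genes called, 491, became 1314 with DESeq2, 1019 with genes of at least 1 read, 1456 at a threshold of 0.05, 120 and 59 against control duplex 1 or 2 alone, 78 with each control duplex summed, 772 with the mock library among the controls, and 163 to 915 with a library left out. Members called higher, 0, became 3 with DESeq2, 1 with library size alone and 1 with genes of at least 1 read. They became 4 at 0.05, 2 with the mock library added and 0 to 1 with a library left out. Over all tested genes, 248 of 17811 higher became 722 with DESeq2, 287 with library size alone and 825 at 0.05. Such genes became 574 of 29942 with genes of at least 1 read and 451 of 17895 with the mock library added. With a library left out, 35 to 394 genes were called higher. Members called lower, 3, became 4 with DESeq2 and 4 at 0.05, each time with ATG16L1 added. They became 2 with control duplex 1 alone, 1 (GLA) with control duplex 2 alone, 1 with summed duplexes and 2 to 3 with a library left out. Over all tested genes, 243 lower became 592 with DESeq2 and 631 at 0.05. Such genes became 96 of 17631 with control duplex 1 alone, 53 of 17680 with control duplex 2 alone and 75 of 18599 summed. With a library left out, 128 to 521 genes were called lower. Between control duplexes, 568 genes became 1736 at 0.05 and 0 to 2056 with a library left out; members higher there, 0, became 1 with DESeq2, 3 at 0.05 and 0 to 3 with a library left out, and members lower, 1, became 5 at 0.05 and 0 to 4. Without control library 3 or 4, edgeR called 0 genes there, with 2103 and 2729 at an unadjusted p under 0.05. Between control duplexes with all 4 control libraries, 307 of 17261 tested genes were higher and 261 lower. These became 376 and 384 with DESeq2, and 812 and 924 at 0.05. The causes were not tested.

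The median of membrane supply became 0.14 and 0.23 against control duplex 1 or 2 alone and 0.15 to 0.22 with a library left out, and that of receptors became −0.040 and 0.11, and −0.0031 to 0.088.

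Changes of sign were all at adjusted p-values of at least 0.46. With control duplex 1 alone, ATG9A had −0.17, BECN1 −0.0066 and CTSZ −0.026. With control duplex 2 alone, ULK1 had −0.11, ATG4D 0.089, CALCOCO2 0.13 and ATP6V1H 0.0097. CALCOCO2 had 0.0038 with limma-voom, 0.034 with library size alone, 0.0022 with filterByExpr, 0.0017 with summed duplexes and 0.036 with the mock library, ULK1 −0.022 with limma-voom, ATP6V1H 0.00096 with library size alone, ATG14 0.018 with the mock library and ATP6V1A −0.0015 with genes of at least 1 read. With a library left out, the range was −0.17 to 0.27 for ULK1, −0.042 to 0.15 for ATG13, −0.031 to 0.17 for ATG9A, −0.15 to 0.11 for ATG14, −0.025 to 0.097 for ATG4B, −0.0037 to 0.16 for ATG10, −0.0077 to 0.26 for GABARAP, −0.024 to 0.10 for GABARAPL2, −0.058 to 0.068 for CALCOCO2, −0.075 to 0.053 for ATP6V1A, −0.099 to 0.046 for ATP6V1H and −0.085 to 0.091 for CTSZ.

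No paired analysis was possible because equal numbers stand for unrelated duplexes in the NFE2L2 siRNA and control groups. Each NFE2L2 duplex has 1 library, so that duplex and transfection cannot be told apart. MCOLN1 and TFEB rest on the fewest reads, 183 to 357 per NFE2L2 siRNA library.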

Other observations

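Several genes of the other pathway lists stood apart in a single NFE2L2 duplex, while the remaining NFE2L2 siRNA libraries lay near or above the controls. With at least 1 CPM in the controls, 14 of the 119 such genes (11.8%) differed by more than 1 log2 unit between NFE2L2 duplexes, 1 of the 46 members did, and so did 8.60% of 13732 tested genes at that level. LIPA, lysosomal acid lipase, was at 151, 47.2 and 170.02 CPM with duplexes 1, 2 and 3, against 123 to 143 CPM in the controls. LAPTM4A, a lysosomal membrane protein, was at 368, 108 and 359 CPM against 223 to 245 CPM. LAMTOR1, which anchors mTORC1 signalling to the lysosome, was at 79.3, 74.9 and 17.8 CPM against 68.9 to 72.1 CPM. RTN3, a receptor for autophagy of the endoplasmic reticulum, was at 48.1, 146 and 153 CPM against 127 to 143 CPM. The low library was duplex 2 for LIPA and LAPTM4A, duplex 3 for LAMTOR1 and duplex 1 for RTN3, and none of these genes passed the test between groups. These genes were chosen after their values were seen, and the cause was not tested.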
